A study of Astyanax mexicanus with 12 samples.

Results

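In ovaries of the fish Astyanax mexicanus, 44 of 27420 counted genes were read in every Tinaja cavefish library and hardly at all in surface fish. They were chosen by their reads: at least 10 in each of the 6 Tinaja libraries and at most 6 in total over the 6 surface libraries. The difference between the populations is therefore what defined them, and it is described here with no test. Read here means that reads were assigned to an entry: the genome build and annotation behind the counts are unknown, and a gene that is not expressed in surface fish cannot be told apart from one whose surface reads were assigned elsewhere. The same rule with the populations exchanged gave 45 genes read in surface fish only.

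The species has surface populations living in rivers and several cave populations without functional eyes, of which Tinaja is an example. RNA of the right ovary was sequenced from 4 groups of 3 wild-type females, about 660 days after fertilisation: surface fish left untreated (control), starved surface fish, control Tinaja cavefish and starved Tinaja cavefish. The sources used here do not say how long the fish were starved. Replicates are known only to be separate samples of a group, and every p-value rests on the spread among them, which may be technical.

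Cave and river populations of this species have diverged in eyes, pigment, appetite and metabolism. A fish ovary holds oocytes at many stages, which store RNA for the embryo, and around them granulosa and theca cells, stroma, vessels and immune cells. Prostaglandins made in the follicle act in ovulation, and cadherins join cells of the follicle to each other and to the oocyte.

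Gene reads per library numbered 7152581 to 10198881 for surface fish and 5949155 to 7973058 for Tinaja. The oocyte genes gdf9, bmp15, zar1, ddx4 and zp3c were read in both populations, for example ddx4, an RNA helicase of germ cells, at 625 ± 67.1 CPM (reads scaled to a common library size, mean ± SD, n = 6) in Tinaja and 617 ± 58.6 in surface fish. Of these genes only ddx4 was called in neither feeding state. By edgeR, bmp15 was lower in Tinaja among control (adjusted p = 0.0377) and starved fish (0.00347). Among starved fish gdf9 (0.00441), zar1 (0.0321) and zp3c (0.00331) were lower too. Alternatives were not run on them. The summed marker genes of several cell types around the oocyte had higher levels in Tinaja. The summed level of 10 stroma entries (of 12 symbols listed) was 126 to 391 CPM in Tinaja libraries against 41.6 to 88.3 in surface libraries, and lum had no read in Tinaja. The 9 granulosa entries (of 10 symbols) summed to 16.4 to 30.8 CPM in Tinaja, 12.1 to 15.1 in control and 5.36 to 5.92 in starved surface fish, and foxl2a had no read in Tinaja. In edgeR, 1 of 7 stroma and 1 of 5 granulosa genes tested were called higher in Tinaja among control fish, and 4 and 2 among starved fish. Of all genes tested, 16% were called higher in Tinaja among control fish and 20.3% among starved fish. For theca and steroid synthesis (5 of 7) the sums were 8.19 to 18.4 against 1.51 to 6.44 CPM, for smooth muscle (4 of 6) 52.1 to 91.7 against 6.43 to 29.0, and for lymphocytes (6 of 9) 4.79 to 12.6 against 0.00 to 2.28. Of their genes tested, 2 of 3, 1 of 5 and 2 of 2 were called higher in control fish and 3, 2 and 2 in starved fish, beside the same shares of all genes. Sums of other lists overlapped between the populations. For macrophages and neutrophils (10 of 14 symbols) they were 49.9 to 122 CPM in Tinaja against 25.4 to 117, and for blood vessels (7 of 8) 10.1 to 19.9 against 4.95 to 10.3. In control fish 2 of 8 and 0 of 3 were called higher, and 3 and 1 in starved fish. Within control fish the sums of blood vessels, fat cells and epithelium lay wholly higher in Tinaja. Within starved fish those of blood vessels lay wholly higher. Those of red blood cells (1.36 to 1.80 against 3.34 to 5.09 CPM) and liver (0.656 to 1.94 against 2.80 to 4.35) lay wholly lower in starved Tinaja. The oocyte list (13 of 15) summed to 5446 to 6895 CPM in Tinaja, 5101 to 5952 in control and 7145 to 7717 in starved surface fish. Of its 13 genes tested, 2 were called higher and 1 lower in control Tinaja, and 1 higher and 8 lower in starved Tinaja. Of all genes tested, 16.4% were called lower in control and 20% in starved fish. None of the 44 genes is in a marker list. In bulk tissue, fewer cells of a type and less RNA per cell cannot be told apart, and the part of these cells in the levels of the 44 genes was not tested.

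Over the 6 Tinaja libraries the 44 genes collected 17093 reads, against 153 over the 6 surface libraries, although surface fish had more reads in all. Their summed level was 328 to 440 CPM in Tinaja libraries and 2.59 to 4.42 CPM in surface libraries. The surface reads numbered 76 in control and 77 in starved fish, with 19 to 33 per library. No gene had more than 5 in a surface library. Single genes could be uneven: all 6 surface reads of clmnb were in starved fish, and all 5 of ENSAMXG00000004870 in surface control 2. Of the 44 genes, 5 had no surface read, 15 had 1 to 3 and 24 had 4 to 6. In Tinaja, 3 genes (clmnb, ENSAMXG00000017788 and cdh7a) took 42.1% of the reads, 22 averaged 5 to 20 CPM and 19 averaged less than 5 CPM. Gene lengths are not in the files used, so an order of different genes by level may also reflect their lengths. In an edgeR fit of all libraries, called at an adjusted p under 0.05, 16% of 14627 genes tested were called higher in Tinaja among control fish and 20.3% among starved fish. The rule used that contrast, so nothing is read from it for the 44 genes.

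**Figure D1:**
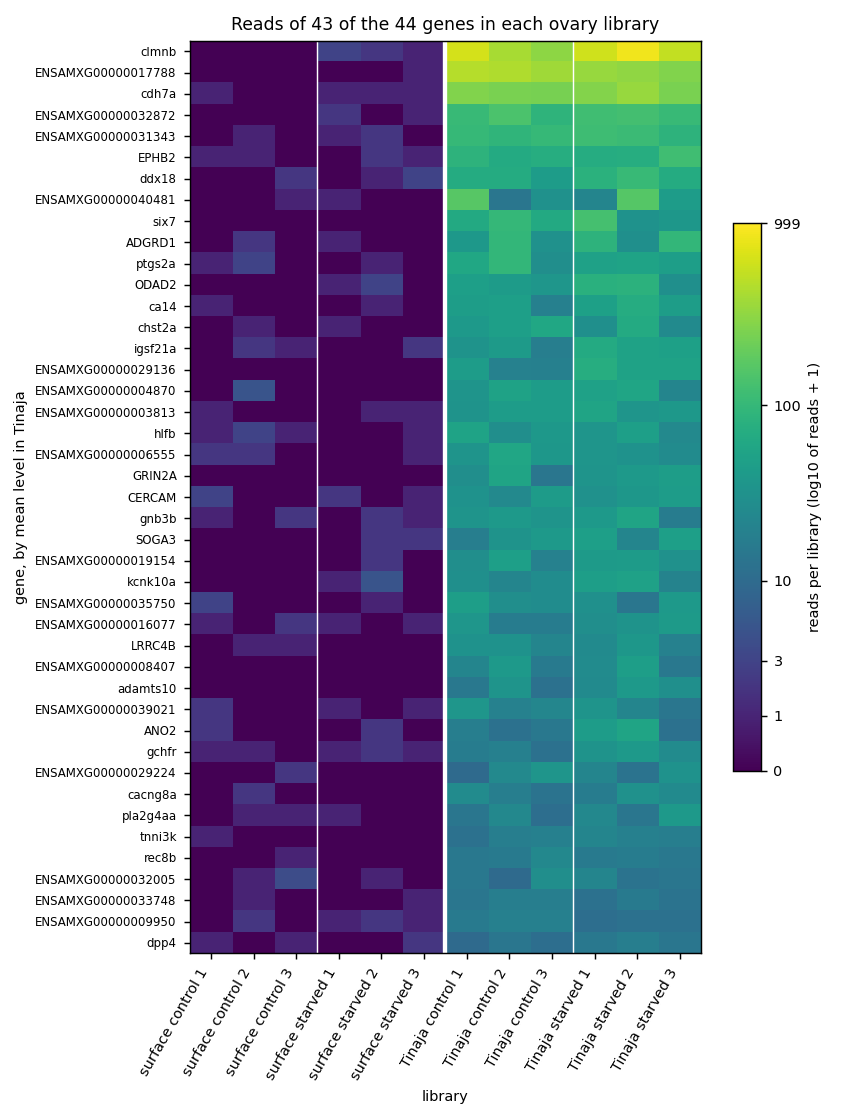
Reads of 43 of the 44 genes (rows, ordered by mean level in Tinaja) in each of the 12 libraries (columns), on a log10 scale of reads + 1. The 6 Tinaja columns hold at least 10 reads in every row and the 6 surface columns no more than 5.

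The thresholds cut through a range of values. Just inside the limit on surface reads, ENSAMXG00000032005 had 103 Tinaja reads and 6 surface reads. Just outside it, with 7 surface reads each, were mfsd4ab, stoml3b and erbb3b, a receptor of the epidermal growth factor family with 33 to 116 reads per Tinaja library. At the limit on Tinaja reads, dpp4 held 10 reads in its lowest library, and slain1a, with 9 in its lowest and 5 over the surface libraries, fell outside.

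Genes of adhesion, cell shape and receptors were among the 44. For clmnb, which encodes calmin, a membrane-anchored protein with actin-binding domains, 648, 403 and 309 reads were counted in Tinaja control 1, 2 and 3 and 613, 871 and 535 in starved 1, 2 and 3. Control surface fish had 0, 0 and 0 reads, and starved ones 3, 2 and 1. The ratio of Tinaja to surface levels was 624, with a 95% counting interval of 286 to 1702 (such intervals cover counting error only). The adhesion gene cdh7a, a type II cadherin, had 270, 247 and 243 reads in control and 280, 340 and 246 in starved Tinaja, and 4 reads over all surface libraries. Its 6 Tinaja levels lay close together, from 35.4 to 42.2 CPM.

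EPHB2, a receptor tyrosine kinase that binds ephrins on neighbouring cells, had 87, 67 and 72 reads in control and 71, 72 and 118 in starved Tinaja, and 5 in surface fish. Starved 3 was high for it, at 19.4 CPM, and the other 5 libraries lay between 8.93 and 12.8. ADGRD1, an adhesion G protein-coupled receptor, had 39, 96 and 32 reads in control and 87, 30 and 96 in starved Tinaja, and 3 in surface fish. Control 2, starved 1 and starved 3 lay above the other 3 Tinaja libraries, so high and low libraries occurred in both feeding groups. The summed stroma markers split the same libraries the other way, at 391 and 274 CPM in control 1 and 3 and 256 in starved 2 against 126 to 182 in the other 3. Macrophage and neutrophil markers split as stroma did, at 122, 77.9 and 95.4 CPM against 49.9 to 57.8. Theca markers split as ADGRD1 did, at 13.6 to 18.4 CPM against 8.19 to 13.1, and the other marker lists in neither way. These splits were noted after the values were seen, and the part of these cell types in ADGRD1 was not tested.

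The synaptic adhesion genes igsf21a and LRRC4B had 264 and 172 Tinaja reads. Surface fish had 5 and 2 for them. A second entry named LRRC4B had 0 reads in Tinaja and 2 in surface fish.

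A pair of genes of prostaglandin synthesis was among the 44. The gene pla2g4aa encodes a cytosolic phospholipase that releases arachidonic acid from membranes, and ptgs2a encodes an inducible cyclooxygenase that converts it. In the RefSeq annotation of an A. mexicanus surface genome (AstMex3_surface), the 2 genes lie side by side, with no protein-coding gene between them. For ptgs2a, 60, 96 and 29 reads were counted in control and 51, 54 and 47 in starved Tinaja, and 1, 3, 0, 0, 1 and 0 in surface fish. That is 7.98 ± 3.22 CPM in Tinaja (SD, n = 6), a ratio to surface fish of 74.7 (31.7 to 232). For pla2g4aa, 14, 24 and 11 reads were counted in control and 24, 14 and 41 in starved Tinaja, with 3 in surface fish, a ratio of 47.3 (15.8 to 232). The genes on either side of the pair were looked up too. On the side of ptgs2a, pdca had 1 read over all 12 libraries together, too few to compare the populations. On the side of pla2g4aa, arpc5a, a subunit of the actin-nucleating Arp complex, measured 13.6 CPM in Tinaja and 11.3 in surface fish, and was called higher in starved Tinaja (log2 difference 0.48, adjusted p = 0.0407) but not in control Tinaja (0.08, 0.749). Alternatives were not run on arpc5a.

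Other genes of the prostaglandin pathway were looked up after these values were seen, so their choice is not independent. Of 32 symbols listed, 13 genes outside the 44 had enough reads to be tested between the populations. In control fish 4 were called higher in Tinaja, 2 lower and 7 not called, where 16% of all genes were called higher and 16.4% lower. In starved fish 5 were called higher and 1 lower, where 20.3% and 20% of all genes were. The gene of thromboxane synthase, tbxas1, was higher in Tinaja, at 14.9 ± 3.27 against 6.40 ± 1.91 CPM in control fish (SD, n = 3 each, edgeR adjusted p = 0.00626). Its call held under all 17 alternatives, unlike those of ptgs1, SLCO2A1 and ptges3b, the other 3. The starved call of ptgs1 (log2 difference 4.64, adjusted p = 0.0323) ended without surface starved 1, 2 or 3 (0.072 to 0.0873) or Tinaja starved 2 (0.144, log2 difference 3.41), with limma voom (0.118) and with a replicate block (0.0607). That of ptgr2, the gene called lower (0.0231), ended without surface starved 1 or 2 or Tinaja starved 1 or 3, at 0.0567 to 0.0735. The gene abcc4, a transporter that exports prostaglandins among other substrates, was lower, at 15.5 ± 5.66 against 47.4 ± 16.0 CPM (adjusted p = 0.0123). In starved fish it measured 17.5 ± 2.85 and 32.6 ± 15.6 (adjusted p = 0.0969, but 0.0442 with DESeq2 and 0.0166 without starved surface 1). The constitutive cyclooxygenase gene ptgs1 had 47, 3, 21, 2, 24 and 6 reads in Tinaja libraries and 8 over all surface libraries. Its call in control fish (adjusted p = 0.0374) ended without Tinaja control 1 (0.152) or 3 (0.0667), and without surface control 1 (0.101) or 2 (0.106). It also ended without surface starved 3 (0.0586) or Tinaja starved 3 (0.0503), with limma voom (0.12) and with a replicate block (0.0745). The second inducible copy, ptgs2b, had 7, 58, 26, 18, 2 and 1 reads in Tinaja and 24 in surface fish, and was not called in control fish (0.0538) or starved fish (0.641). In control fish it was called without surface control 1 (0.0223), Tinaja control 1 (0.0361) or Tinaja starved 1 (0.0331), with DESeq2 (0.0297) and with a replicate block (0.0408).

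**Figure D2:**
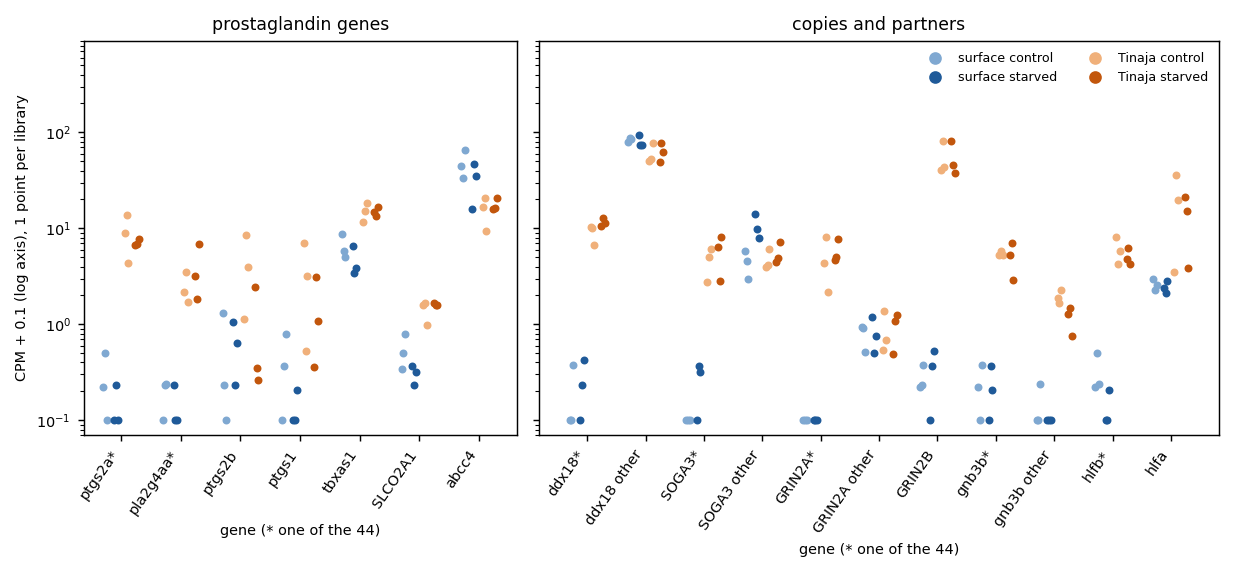
CPM + 0.1 on a log axis, 1 point per library and 4 groups side by side, for genes of the prostaglandin pathway (left) and for genes sharing a symbol or family with a member of the 44 (right); an asterisk marks the 44. Surface points of the 44 lie near the bottom, where 0.1 means no read, while the other ddx18 entry averages 82.0 CPM in surface fish and 61.7 in Tinaja.

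Among transcription factors, six7 had no read in any surface library. It encodes a homeobox factor that in zebrafish directs opsin genes of cone photoreceptors. Tinaja ovaries had 66, 99 and 66 reads in control and 131, 33 and 38 in starved fish, 10.1 ± 4.80 CPM (SD, n = 6). That is 160.0 times the level that 3 reads over all surface libraries would give. Starved 1 was highest and starved 2 lowest, and the feeding groups overlapped. The related homeobox genes six6a, six6b and six3a had 0 reads in both populations. Of 23 cone photoreceptor symbols, listed after the values were seen, 20 entries were found, and 4 outside the 44 were tested. In control fish 1 was called higher in Tinaja, a second gnb3b entry, and in starved fish 2, where 16% and 20.3% of all genes were. The other was thrb, a thyroid hormone receptor, with 1099 reads in Tinaja and 576 in surface fish (log2 difference 1.18 in starved fish, adjusted p = 0.0332, and 0.0984 in control fish). The G protein gamma gene gngt2a had 103 and 36 reads, gnb3a 39 and 2, and the cone factor crx 64 and 62. The opsin gene opn1lw1 had 6 and 0 reads, the phosphodiesterase gene pde6c 1 and 0, and the transducin gene gnat2 14 and 39. Alternatives were not run on thrb.

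The gene hlfb encodes a transcription factor of the PAR bZIP family, whose members follow the circadian clock in many tissues. It had 54, 29 and 39 reads in control and 36, 49 and 25 in starved Tinaja against 6 in surface fish, a ratio of 42.9 (19.4 to 118). Its partner hlfa had 23, 249 and 134 reads in control and 162, 121 and 23 in starved Tinaja, and 15 to 25 in each surface library. Tinaja control 1 and starved 3, with 23 reads each, lay in the range of surface reads, and the other 4 far above it. The call of hlfa in control fish (log2 difference 2.95, adjusted p = 0.0165) was lost on leaving out surface control 2 (0.0596) or 3 (0.0557) or Tinaja control 2 (0.0519, log2 difference 2.18), and with limma voom (0.189). In starved fish (log2 difference 2.50, adjusted p = 0.0279) it ended without surface starved 1, 2 or 3 and without Tinaja starved 1 or 2, at 0.0614 to 0.09, without the filter (0.0676), with limma voom (0.203) and with a replicate block (0.0572). Of the other PAR bZIP genes, tefb was lower in Tinaja control fish (log2 difference -0.81, adjusted p = 2.4e-05), and so was dbpa (-1.50, adjusted p = 0.0107). Of 4 genes of the family tested outside the 44, 1 was called higher and 2 lower in control fish, where 16% and 16.4% of all genes were. In starved fish 2 were called higher, hlfa and tefa (2.11, adjusted p = 0.0355), and 2 lower, tefb (-0.31, 0.0107) and dbpa (-1.08, 0.0384). Of all genes, 20.3% were called higher and 20% lower in starved fish. The starved call of dbpa ended without surface control 2, without surface starved 1, 2 or 3 and without Tinaja starved 1 or 2, at 0.0507 to 0.12, and alternatives were not run on tefa.

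Several of the 44 encode channels, receptors and signalling proteins best known from nerve and sense cells. GRIN2A, a subunit of the NMDA type of glutamate receptor, had 29, 56 and 14 reads in control and 35, 40 and 46 in starved Tinaja and none in surface fish. Its Tinaja level was 81.3 times that of 3 reads over all surface libraries. A second entry named GRIN2A had 34 reads in Tinaja and 33 in surface fish. The related GRIN2B narrowly missed the rule, with 277, 564, 299, 631, 370 and 228 reads in Tinaja and 10 over all surface libraries. It was higher in Tinaja by 8.17 ± 0.615 (SE) on the log2 scale in control fish (edgeR adjusted p = 5.8e-06) and by 7.70 ± 0.582 in starved fish (5.3e-06). For grin2bb the log2 differences were 4.76 ± 0.541 (9e-05) and 5.04 ± 0.580 (8.9e-05). Without surface control 3, which had 20 of its 46 surface reads, the difference in control fish was 5.88. Without surface starved 3, which had 4 of the 10 surface reads of GRIN2B, its difference in starved fish was 8.50. The genes of the subunit that every NMDA receptor needs, grin1a and grin1b, had 1 and 0 reads in Tinaja and 2 and 1 in surface fish. Of 35 glutamate receptor and auxiliary subunit symbols, listed after the values were seen, 4 genes outside the 44 could be tested, and 3 were called higher in Tinaja in either feeding state, where 16% of all genes were in control and 20.3% in starved fish.

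The gene cacng8a encodes an auxiliary subunit of AMPA-type glutamate receptors. It had 13 to 32 reads in each Tinaja library and 2 in surface fish. Its neighbour of the same family, cacng6a, had 61 and 16 reads, and cacng7a, on the other side, had none in either population. The potassium channel gene kcnk10a had 21 to 51 reads per Tinaja library and 6 in surface fish. ANO2, a calcium-activated chloride channel of sensory cells, had 18, 12 and 15 reads in control and 44, 55 and 12 in starved Tinaja, and 4 in surface fish. Starved 1 and 2 were high and starved 3 lay with the control libraries.

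The gene gnb3b, a G protein beta subunit used by cones, had 17 to 56 reads per Tinaja library and 6 in surface fish. A second gnb3b entry followed the same pattern with fewer reads, 62 in Tinaja and 1 in surface fish, and was called in control fish (log2 difference 4.94, edgeR adjusted p = 0.0018, and 4.33 with limma voom). The read was in surface control 3. Without that library no surface read is left, and the fitted 6.80 depends on the prior count. Both entries together measured 6.61 ± 1.68 CPM in Tinaja and 0.151 ± 0.161 in surface fish (SD, n = 6).

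Enzymes and matrix proteins formed a further group. ADAMTS metalloproteases cut extracellular matrix proteins, and adamts10, linked to microfibrils, had 15, 35 and 12 reads in control and 26, 41 and 30 in starved Tinaja and none in surface fish. Its Tinaja level was 58.7 times the level that 3 reads over all surface libraries would give. The membrane-bound carbonic anhydrase gene ca14 had 19 to 71 reads per Tinaja library and 2 in surface fish. The carbohydrate sulfotransferase gene chst2a had 26 to 67 and 2, and CERCAM, of the collagen galactosyltransferase family, 25 to 45 and 6. The feedback regulator of GTP cyclohydrolase, gchfr, had 17, 19 and 12 reads in control and 34, 40 and 27 in starved Tinaja. Its 3 starved libraries lay above the 3 control libraries. The kinase gene tnni3k had 12 to 22 reads per Tinaja library and the peptidase gene dpp4, whose product cleaves incretin hormones, 10 to 18.

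ODAD2 encodes a factor that docks outer dynein arms in motile cilia. It had 49, 43 and 37 reads in control and 80, 84 and 30 in starved Tinaja, and 4 in surface fish. Genes of the same docking complex, looked up after the values were seen, went in either direction. The log2 difference of odad3 was -3.53 ± 0.402 (SE) in control fish, with 26 to 95 reads per Tinaja library and 385 to 560 per surface library (adjusted p = 0.00011). That of odad4 was 2.14 ± 0.544, higher in Tinaja (adjusted p = 0.0103), and 2.73 without surface control 1. The starved call of odad4 (log2 difference 1.97, adjusted p = 0.0142) ended without surface starved 2 (0.0518) or 3 (0.0575).

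Of genes of the germ line and the nucleolus, rec8b, a cohesin subunit of meiosis, had 15, 16 and 24 reads in control and 16, 17 and 15 in starved Tinaja and 1 in surface fish. The ratio was 114, with a counting interval of 20.04 to 4552. Of 13 symbols of meiotic cohesin and the synaptonemal complex, looked up in the same way, 5 other genes were tested. In control fish 2 were called higher, 2 lower and 1 was not called, where 16% of all genes were called higher and 16.4% lower. In starved fish 2 were called higher and 1 lower, where 20.3% and 20% of all genes were. The cohesin subunit rad21l1 was lower in Tinaja control fish by a log2 difference of -1.13 ± 0.226 (adjusted p = 0.00256), and the shared core subunit smc3 measured 193 ± 6.81 CPM in Tinaja and 187 ± 15.5 in surface fish. The gene next to rec8b, pdcd6, which binds calcium, was lower in Tinaja (log2 difference -1.68, adjusted p = 0.00123).

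The nucleolar helicase gene ddx18 had 2 entries. The entry among the 44 had 70, 70 and 45 reads in control and 81, 103 and 69 in starved Tinaja and 6 in surface fish. The other entry had 2628 reads in Tinaja and 3840 in surface fish, and was not called in either feeding state (adjusted p = 0.0762 and 0.166). In control fish it was called without Tinaja control 3 (0.0143) or Tinaja starved 1 (0.0458). Summed over both entries, ddx18 measured 72.0 ± 13.3 CPM in Tinaja and 82.1 ± 7.997 in surface fish (SD, n = 6). The division of reads between entries that share a symbol is uncertain. SOGA3 likewise had an entry with 18 to 49 reads per Tinaja library and 4 in surface fish, and another with 211 and 349 reads, which was called lower in starved Tinaja (log2 difference -0.95, adjusted p = 0.0348). That call ended without surface starved 1 (0.146) or 2 (0.0573), without Tinaja starved 1 (0.111) or 2 (0.0968) and with a replicate block (0.061). Summed, they measured 10.1 ± 3.16 CPM in Tinaja and 7.50 ± 4.06 in surface fish.

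The remaining 17 genes carry no symbol. ENSAMXG00000017788 had 460, 434 and 369 reads in control and 342, 314 and 271 in starved Tinaja and 1 in surface fish, a ratio of 2427 (435 to 95912). ENSAMXG00000032872 and ENSAMXG00000031343 had 88 to 139 and 86 to 115 reads per Tinaja library, with 3 and 4 in surface fish. ENSAMXG00000029136 and ENSAMXG00000008407 had no surface read, with 261 and 167 Tinaja reads. ENSAMXG00000040481 stood apart in its spread, with 167, 14 and 32 reads in control and 22, 159 and 44 in starved Tinaja. Control 1 and starved 2 stood at 24.6 and 19.7 CPM and the other 4 at 2.01 to 7.22. The fat cell markers (5 of 6 symbols) were highest in the same 2 libraries, at 112 and 56.3 CPM against 15.2 to 32.6 in the other 4. So were those of smooth muscle, at 84.7 and 91.7 against 52.1 to 72.0. Markers of macrophages and neutrophils were too, at 122 and 95.4 against 49.9 to 77.9, and the other marker lists were not. This was noted after the values were seen, and the part of these cell types in this gene was not tested. The rest of the genes without a symbol averaged 2.12 CPM (ENSAMXG00000009950) to 6.08 CPM (ENSAMXG00000004870), with 2 to 6 surface reads and ratios of 16.4 to 119.

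Fewer of the 44 genes carried a symbol than of other genes read in Tinaja, a description with no test. A symbol was given for 27 of 44 (61.4%), against 10079 of 12418 (81.2%) among all genes with at least 10 reads in each Tinaja library and 24 of 45 (53.3%) among the genes read in surface fish only. By the start of their symbols, 3 of the 44 were ion channels (ANO2, kcnk10a and cacng8a), where 52 of the 12418 were. ADGRD1 and adamts10 fell in the receptor and matrix classes, and cdh7a into the immune class by its letters alone although it is a cadherin. Another 21 had symbols outside every class and 17 had no symbol. The remaining classes, among them zinc fingers, histones, antigen presentation and egg coat genes, held none of the 44. Classes follow the first letters of a symbol only. The kinase genes EPHB2 and tnni3k and the adhesion genes igsf21a and LRRC4B therefore fell outside the kinase and adhesion classes.

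Neighbouring genes were looked up for the members with a symbol. Of the 27 symbols, 22 matched exactly 1 protein-coding gene of the RefSeq annotation, whose assembly may differ from that used for counting, so only the order of genes was taken from it. The match was by symbol, and ddx18 and gnb3b each have another entry in the counts, outside the 44. Their neighbours in the annotation, ccdc93 and tpi1a, may therefore lie next to that other entry. Besides ptgs2a and pla2g4aa, kcnk10a and clmnb lay close together, with 3 genes between them. Next to the 22 genes, 24 further genes had an entry of their own in the counts, of which 17 had enough reads to be tested. In control fish 5 were called higher and 3 lower in Tinaja and 9 were not called, where 16% and 16.4% of all genes were called, with a median log2 difference of 0.08 and a range of -1.91 to 2.43. In starved fish 5 were higher and 4 lower, where 20.3% and 20% of all genes were. Of those not tested, gcga next to dpp4 had 71 reads in Tinaja and 1 in surface fish, and meis2b next to kcnk10a had 35 and 3. Of the control calls, only that of pdcd6 held under all 17 alternatives. Those of STXBP4 and myo1f, at the lower and upper end of the range, ended under 11 and 3 of them. Those of dipk2aa, ccdc93 and ulk1a ended under 12, 2 and 3. The glycolytic gene tpi1a, next to gnb3b, was higher in starved Tinaja (log2 difference 2.28, adjusted p = 0.00559), and cacng6a likewise (2.45, 0.00774). In control fish the call of tpi1a (adjusted p = 0.0287) was lost on leaving out surface control 1 (0.0693) or 3 (0.0849) or Tinaja control 3 (0.11) and with a replicate block (0.0506). That of cacng6a (0.0434) ended without any library but Tinaja control 2 and surface starved 3, at up to 0.172, and with DESeq2 (0.0829), limma voom (0.0733), a replicate block (0.0766) and no filter (0.0983).

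The 44 genes varied between Tinaja libraries, each to a different degree. The SD of log2 CPM over the 6 libraries had a median of 0.47 among them and 0.16 among the 12418 genes. The highest and lowest Tinaja library differed at least 3-fold for 14 of 44 (31.8%) and for 626 of 12418 (5.04%). Their reads were also fewer, with a median level of 5.16 CPM against 33.3, and the spread of all genes is wider at low levels. The part of read depth in this difference was not tested. Spread was smallest for ENSAMXG00000031343 (0.078) and cdh7a (0.11) and largest for ENSAMXG00000040481 (1.47), ADGRD1 (0.88), ANO2 (0.84), ENSAMXG00000029224 (0.81) and pla2g4aa (0.78).

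**Figure D3:**
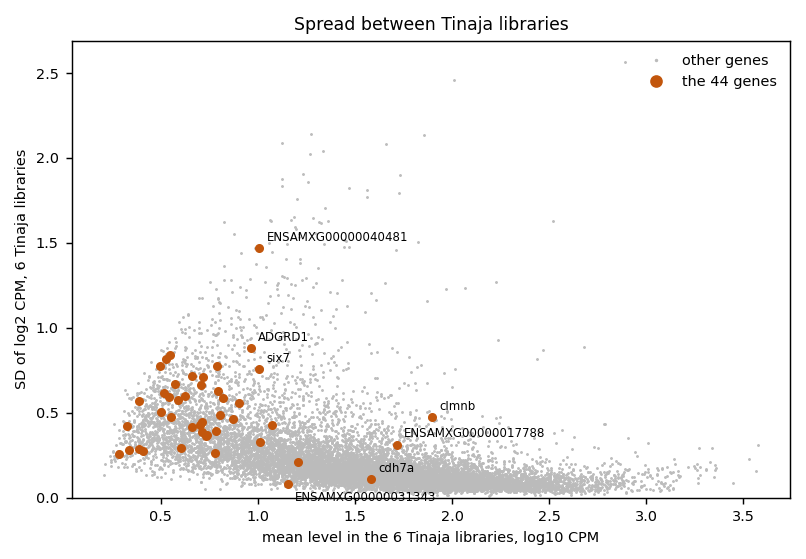
SD of log2 CPM over the 6 Tinaja libraries (vertical) against mean level in log10 CPM (horizontal) for all genes with at least 10 reads in each Tinaja library; the 44 genes are the larger points. Most of the 44 lie at low levels, and ENSAMXG00000040481 lies highest among them, at 1.47.

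Starvation of Tinaja cavefish is a contrast the rule did not use, apart from its demand for 10 reads in every library. None of the 44 genes was called: edgeR called 0 of 44, where 3 of 14627 genes tested (0.0205%) were called. An unadjusted p under 0.05 was reached by 2 of 44 (4.55%) and 578 of 14627 (3.95%), or 3.59% of the genes with 10 reads in each Tinaja library. DESeq2 and limma voom also called 0 of the 44, with 2 and 5 at an unadjusted p under 0.05. Of the 14627 genes tested, 528 and 604 reached it. All 44 passed the expression filter, through their Tinaja libraries.

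ENSAMXG00000017788 measured 61.3 ± 6.87 CPM in control and 42.6 ± 3.14 in starved Tinaja (SD, n = 3 each), a log2 change of -0.53 ± 0.154 (SE). Its adjusted p was 0.965, the lowest of the 44, and its 3 control libraries lay above the 3 starved ones. For gchfr the levels were 2.33 ± 0.507 and 4.60 ± 0.315 CPM, a log2 change of 0.98 ± 0.407 with an adjusted p of 1. The largest fitted values upward were those of ANO2 (1.15 ± 0.641), ENSAMXG00000029136 (0.99 ± 0.442), gchfr, igsf21a (0.78 ± 0.490) and pla2g4aa (0.68 ± 0.596). Downward they were those of ENSAMXG00000009950 (-0.69 ± 0.532), ENSAMXG00000006555 (-0.53 ± 0.438), ENSAMXG00000017788, chst2a (-0.39 ± 0.453) and ENSAMXG00000033748 (-0.36 ± 0.512). For ptgs2a, levels were 8.95 ± 4.77 and 7.01 ± 0.614 CPM (log2 change -0.35 ± 0.491), and for six7 11.2 ± 2.61 and 9.10 ± 6.90 (-0.30 ± 0.514).

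The libraries of control and starved Tinaja did not overlap for 6 of 44 genes (13.6%), against 1261 of 14627 (8.62%). The 3 starved libraries lay above the 3 control libraries for gchfr, igsf21a and ddx18, where 4.69% of all genes did so. They lay below them, as for 3.93% of all genes, for ENSAMXG00000017788, ENSAMXG00000006555 and ENSAMXG00000009950. The median log2 change was 0.12 over the 44 and 0.00 over all genes, with 25 fitted values above and 19 below 0. Standard errors ran from 0.15 to 0.85, with a median of 0.51, and a p that misses the threshold does not show that a gene did not change. In surface fish the same contrast could not be examined, since none of the 44 had more than 6 reads there.

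**Figure D4:**
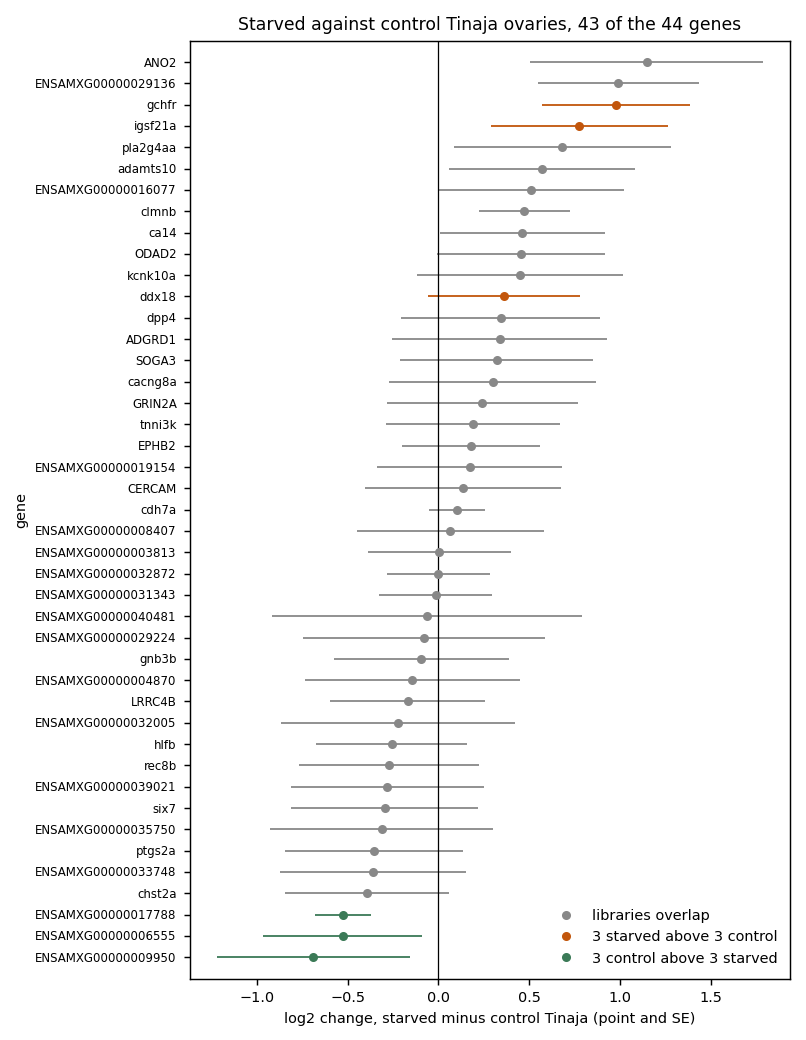
Log2 change with its SE, starved minus control Tinaja, for 43 of the 44 genes. Coloured points mark the 3 genes whose starved libraries all lay above the control libraries and the 3 with the reverse; values run from -0.69 to 1.15 and 0 genes were called.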

How the data were processed

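RNA was prepared by phenol extraction and DNase digestion, and ribosomal RNA was removed before directional library preparation, per the labels' protocols. The authors deposited raw counts of reads for 27420 genes in each library. STAR 2.7.10b and RSEM appear in the submitters' processing notes with no role. The sources used here do not give genome build, annotation or strand setting, and so overlapping genes, antisense genes and near-identical copies are uncertain. Left out were 4 entries naming no gene: unmapped reads (7.28% to 10.1% of all reads), reads mapped to several places (9.91% to 16.8%), outside genes (14.1% to 17.9%) and ambiguous (0.276% to 0.368%). A table of scaled values was not used.

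The members and all gene lists were chosen with earlier results of these data known. Testing used edgeR 4.0.16 (R 4.3.3) with filterByExpr on the 4 groups at a minimum count of 10 (14627 genes), trimmed mean of M values (TMM) factors and a robust quasi-likelihood model with a mean for each group over all 12 libraries. P-values were adjusted by Benjamini-Hochberg across the genes tested and called under 0.05. The scripts were tested on simulated data. The SE of a log2 value is an approximation, its size over the root of F. CPM are TMM-scaled, and 3 reads in a library equal 0.323 to 0.492 CPM. Ratios of Tinaja to surface fish compare reads per effective library size, with a 95% exact binomial interval, and a gene without surface reads is set against 3 reads over the 6 surface libraries. Intervals cover counting error only.

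By the naming rule, the text names the 15 members of highest level, members with a symbol from 2 CPM, the 5 largest rises and falls, the 5 largest and 3 smallest spreads, entries sharing a symbol, adjacent members, genes at the thresholds and 5 oocyte genes. Of the 44 members, 1 is counted in the totals but not reported here by itself. Pathway genes, partners and other neighbours were added after values were seen, as were the alternatives run on them. Alternatives were DESeq2 1.42.0, limma 3.58.1 (voom), relative log expression size factors, no filter, Tinaja libraries alone and a replicate block. Further ones were leaving out each library in turn and other limits of the rule. For starvation in Tinaja, only Tinaja libraries were left out.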

Additional observations from a re-analysis of the deposited data

How the results depend on the processing

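The number of genes found depends on the limits of the rule: 83 with at least 5 reads and 20 with at least 20 reads in each Tinaja library, 5 with no surface read and 86 with up to 12. A rule in CPM (at least 1 in each Tinaja library, a surface mean of at most 0.1) gave 36, of which 28 were among the 44. Leaving out 1 library gave 47 to 62. These had to include the 44, because leaving out a library can only loosen the rule.

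For starvation in Tinaja, the 3 genes called among all tested became 18 with DESeq2 and 1 with voom. A fit of the Tinaja libraries alone called 0. In that fit 452 of 13751 genes, and 5 of the 44, had an unadjusted p under 0.05. Leaving out 1 Tinaja library gave 3 to 34 called genes, with 21 without control 1 and 34 without starved 1. None of the 44 was called in any of these, with adjusted p down to 0.282. Their median log2 change stayed between 0.01 and 0.19 when 1 Tinaja library was left out. Genes whose libraries did not overlap numbered 8 to 14 of the 44 (18.2% to 31.8%) with 1 Tinaja library left out. The 8 came without control 3, where 17.5% of all genes did not overlap. The 14 came without starved 3, where 14.7% of all genes did not. Across these settings the share of all genes ran from 14.7% to 21.5%. In 42 of 528 values of single genes under an alternative the sign changed, in 21 genes, none called.

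The replicate numbers of the labels showed no sign of pairing the Tinaja libraries: same-numbered deviations correlated at -0.31, -0.24 and -0.04. Differently numbered ones correlated at -0.11 to 0.30. These values cannot show how the samples were handled. With a replicate block 3 genes were called overall and 0 of the 44. Depth limits the low genes: 19 of the 44 averaged under 5 CPM.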

Other observations

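The proglucagon gene gcga, which encodes hormones of glucose balance, lies next to dpp4 in the RefSeq annotation. It had 71 reads in Tinaja and 1 in surface fish, 1.60 and 0.018 CPM, and too few in each library to meet the rule. The homeobox gene meis2b, next to kcnk10a, had 35 and 3 reads. The prostaglandin-degrading enzyme gene hpgd was higher in starved Tinaja than in starved surface fish (log2 difference 2.77, edgeR adjusted p = 0.00494). The prostaglandin transporter gene SLCO2A1 was higher too (2.77, 0.00279). Both rest on few reads, 2, 1 and 2 in starved surface fish for either gene. In starved Tinaja they had 13, 5 and 14 (hpgd) and 12, 12 and 9 (SLCO2A1). Control and starved fish measured 1.84 and 1.53 CPM of hpgd in Tinaja, and 0.752 and 0.207 in surface fish. In control fish hpgd was not called (0.0869), and the call of SLCO2A1 (0.0429) ended under 13 of 17 alternatives, at up to 0.143, among them leaving out any library but surface control 3 and Tinaja control 3.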
